A study of Drosophila melanogaster with 8 samples.

Results

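Traffic between nucleus and cytoplasm was examined in heads of flies that express the C9orf72-type (G4C2)36 repeat, across 40 genes for the nuclear pore and its transport factors. The members were chosen by name, as nucleoporins, Ran cycle genes, importins, exportins and the mRNA export receptor. The rule uses no expression value, but it was drawn up with earlier results of these data known. Of the 48 names in the rule, 40 matched a row of the deposited table of 16727 genes. The other 8 names comprised 4 alternative spellings of members already found (RanGap, Bj1, Cse1 and Tnpo, for RanGAP, Rcc1, Cas and Trn) and 4 pore genes that the table lists under older names, which are given separately below. The genes castor and tartan have rows of their own in the table, so Cas and Trn here are the exportin and the transportin.

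The study compared 4 libraries from induced C9 flies with 4 from uninduced flies, each made from polyA RNA of 15 heads. All flies were female, in a w1118 background, carried the same UAS-(G4C2)36; elavGS genotype and were 7 d old. Induced flies had fed for 5 d on 200 µM RU486, which activates the elavGS driver in adult neurons, whereas uninduced flies received the ethanol vehicle. A single repeat line was used, and no library came from flies given RU486 without the repeat, so effects of repeat expression and of the drug cannot be told apart. Heads were sequenced whole, although the transgene is driven in neurons. Library totals were 13247282 to 14192723 counts in uninduced and 13421396 to 14962813 in induced heads. Of all counts, 25.7 to 26.4% fell on the top 20 genes in uninduced libraries and 21.4 to 23.8% in induced libraries. The TMM normalization, used for every value below unless another scaling is named, is meant to correct for this difference in composition. Levels are in CPM, the counts of a gene relative to the normalized library total. The head libraries held the defining markers of neurons (8 of 8 tested, summed level 2470 to 2757 CPM in uninduced and 2700 to 2867 in induced heads) and of photoreceptors (9 of 9 tested).

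The nuclear pore is a channel built of stacked rings. The outer ring and inner ring form the scaffold, the membrane ring anchors it in the nuclear envelope, and nucleoporins rich in phenylalanine-glycine repeats fill the channel and extend into cytoplasmic filaments and the nuclear basket. Importins and exportins carry cargo through this channel, and the small GTPase Ran gives the direction, because Rcc1 loads Ran with GTP in the nucleus and RanGAP stimulates its hydrolysis in the cytoplasm. Messenger RNA leaves through a different receptor, sbr (the fly Nxf1) with its partner Nxt1. Pore and transport genes have been recovered as modifiers of G4C2 repeat toxicity in flies, and nucleocytoplasmic transport is a long-standing topic in ALS/FTD research.

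Of the 39 members with enough reads to test, 14 were higher in induced heads and none was lower at an adjusted p under 0.05. These were 8 of 25 pore components (Nup98-96, Nup358, Nup153, Nup154, Nup54, Nup50, Nup214 and Sec13) and 6 of 14 transport factors (Cas, Nxt1, Rcc1, Kap-alpha1, sbr and Ran). Most changes were small. Nup98-96 rose 1.80-fold, the next in size, Cas, rose 1.35-fold, and the smallest called rise was 1.10-fold. The share of members called was 35.9%, close to the 36.5% of all 9905 tested genes that were called in either direction, but the direction differed between members and all genes. Among all tested genes, 17.7% were higher and 18.8% were lower, against 35.9% and none of the members. The adjusted p-values are from the edgeR quasi-likelihood test over all tested genes. In that test 1 member, Nup44A, was lower at an unadjusted p under 0.05, and DESeq2 also called 0 members lower.

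The log2 fold changes of the 39 members (induced over uninduced) ranged from -0.15 to 0.85 with a median of 0.11, where the median of all tested genes was 0.00. The estimate was above 0 for 31 members and below 0 for 8. The members were narrowly spread, with an SD of 0.19 on the log2 scale against 0.42 over all tested genes, and 79.5% of them lay within 0.2 of 0, against 59.1% of all tested genes. Only Nup98-96 passed the log2 fold change of 0.58 that the study set for genes in its gene ontology enrichment. Of all tested genes, 4.02% were called higher beyond that size. The groups did not overlap, with every induced library above every uninduced one, for 13 members (18.1% of all tested genes), and no member had every induced library below (17.9% of all tested genes). Among the 8296 genes with a mean log2 CPM inside the range of the members (2.03 to 9.12), 19.2% were called higher and 19.5% lower, with a median of 0.00. The summed level of the members was 2507 to 2559 CPM in uninduced and 2640 to 2745 CPM in induced heads, again without overlap.

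**Figure D1:**
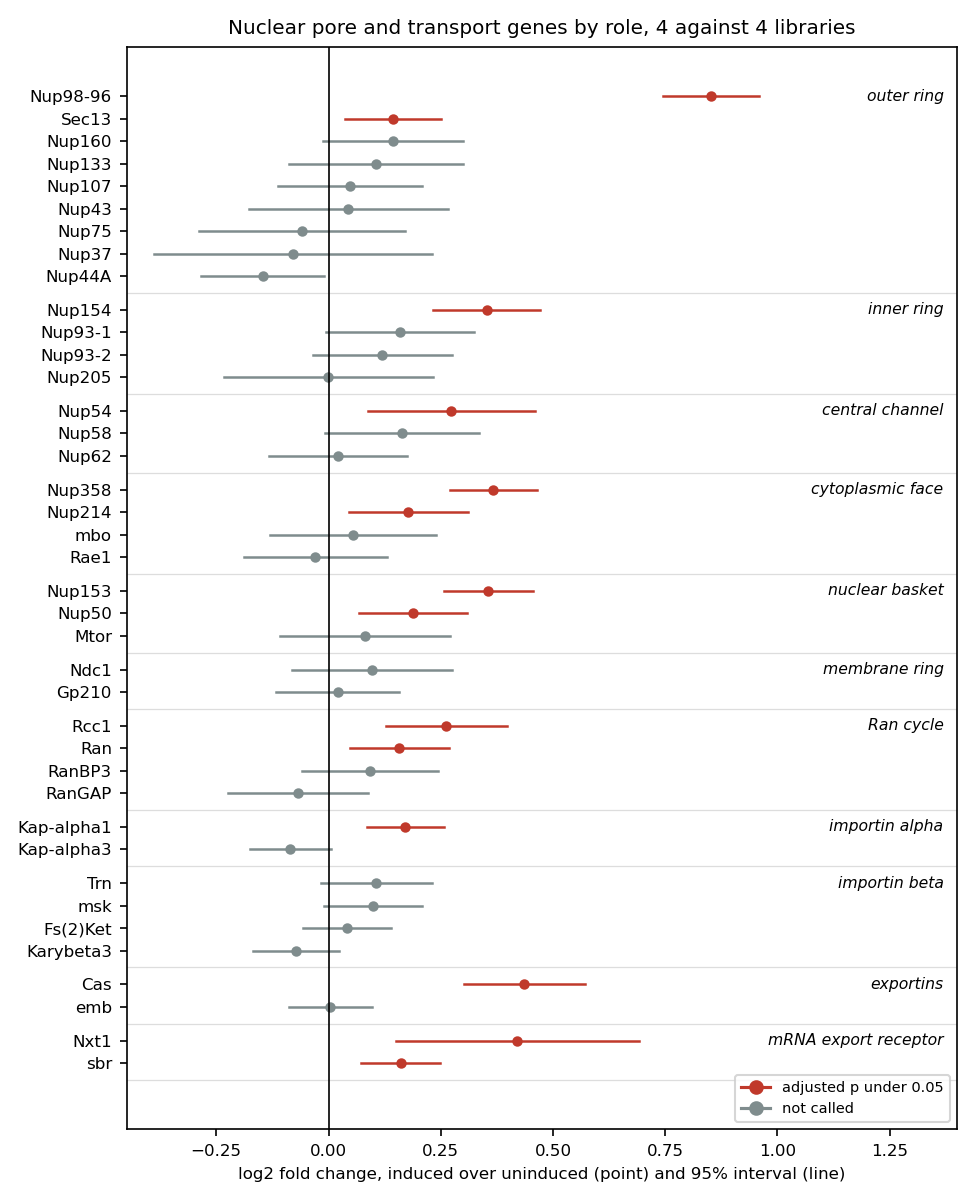
Log2 fold change, induced over uninduced, of the 39 tested members grouped by role (points) with 95% intervals (lines), from 4 libraries per group. The 14 called members (red) all lie right of 0, and Nup98-96, at 0.85, stands apart from the rest, which lie between -0.15 and 0.44.

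The outer ring of the pore, which forms its Y-shaped scaffold units, held the member that changed most. Nup98-96 encodes a conserved precursor of 2 nucleoporins, the mobile channel protein Nup98 and the scaffold protein Nup96. Its level was 57.6, 50.8, 51.3 and 52.7 CPM in the uninduced libraries and 99.1, 95.2, 91.9 and 97.3 CPM in the induced libraries. Induced libraries thus lay far above all uninduced libraries, and the gap between the groups was much wider than the spread within either. The mean rose from 53.1 ± 3.11 to 95.9 ± 3.11 CPM (SD, n = 4), a log2 fold change of 0.85 (SE 0.05, 95% interval 0.74 to 0.96, edgeR adjusted p = 1.55e-08). The gene lies on chromosome 3R at 23774225 to 23781621 (minus strand, BDGP6 in dm6 coordinates) and is annotated with 3 transcripts. Its 647 to 1523 counts per library were summed over the gene, so the levels of its transcripts and of the Nup98 and Nup96 parts were not resolved.

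Sec13, an outer ring protein that is also part of the COPII coat of secretory vesicles, was the other outer ring member called. It measured 45.9, 45.9, 45.0 and 45.3 CPM in uninduced and 54.2, 49.2, 49.4 and 48.4 CPM in induced heads (log2 fold change 0.14, SE 0.05, edgeR adjusted p = 0.0359, 3R 23356278 to 23358531). Induced replicate 1 was the highest library, and without it the estimate was 0.11 (adjusted p = 0.123). The call was lost in 7 of 15 alternatives in all, among them leaving out uninduced replicate 1 or 3 or induced replicate 2 or 3 (adjusted p = 0.0529 to 0.0576) and DESeq2 (adjusted p = 0.091).

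The remaining 7 outer ring members were Nup37, Nup43, Nup44A (the fly Seh1), Nup75, Nup107, Nup133 and Nup160. None passed the test, with levels of 3.00 to 27.2 CPM, log2 fold changes of -0.15 to 0.14 and adjusted p of 0.0885 to 0.793. Nup44A was the member with the most negative estimate, at 25.0, 23.3, 27.2 and 26.1 CPM in uninduced and 23.6, 22.3, 23.4 and 22.2 CPM in induced heads, so the groups overlapped. Its log2 fold change was -0.15 (95% interval -0.28 to -0.01, edgeR adjusted p = 0.0885), and without uninduced replicate 2 it was called lower (-0.18, adjusted p = 0.0442). Nup44A lies on the opposite strand inside the span of ACC, the fatty acid synthesis gene acetyl-CoA carboxylase, which fell by 0.39 on the log2 scale (adjusted p = 0.000112). Nup44A shares 0 annotated exon bases with ACC. The strand setting of the counting is not given in the sources used here, and the part of ACC reads in the Nup44A count was not tested.

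To set Nup98-96 against the other 8 outer ring members without any library scaling, its count was divided within each library by their summed count. Sec13 (568 to 795 counts per library) and Nup44A (304 to 370) gave the most counts to that sum. This ratio, chosen after the values were seen, was 0.427, 0.386, 0.380 and 0.382 in uninduced and 0.673, 0.693, 0.654 and 0.725 in induced heads. Its mean was 1.74-fold higher in induced heads. This and the other within-library ratios below are given as descriptions without a test, because their genes were picked for how they moved.

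The inner ring lines the membrane side of the channel. Nup154, the fly Nup155, was its only called member. Its level was 33.1, 31.4, 32.9 and 32.7 CPM in uninduced and 42.2, 38.1, 42.8 and 42.9 CPM in induced heads. All induced libraries were above all uninduced libraries, although induced replicate 2 was lower than the other induced libraries. The log2 fold change was 0.35 (SE 0.06, 95% interval 0.23 to 0.47, edgeR adjusted p = 0.000189, 2L 11004820 to 11010921). Nup154 shares 1077 exon bases with the antisense gene Art8, a protein arginine methyltransferase gene, whose own log2 fold change was 0.34 (adjusted p = 0.00633) at 94 to 170 counts per library, against 410 to 675 for Nup154. Nup154 has 5420 exon bases in all, and without strand information reads on the shared bases cannot be told apart.

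Nup205 and the paralogs Nup93-1 and Nup93-2 did not pass the test, with levels of 9.0 to 21.1 CPM, log2 fold changes of 0.00 to 0.16 and adjusted p of 0.122 to 0.999. Nup205 had an estimate of 0.00 with a 95% interval of -0.23 to 0.23, so changes within that range were not excluded at its 127 to 195 counts per library. Nup93-2 did not overlap between the groups (11.7 to 13 CPM in uninduced and 13.1 to 13.8 CPM in induced heads) yet was not called (log2 fold change 0.12, adjusted p = 0.22). It shares 688 exon bases with CG14860, whose reads could be split between the pair.

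Nup54, Nup58 and Nup62 form the central channel complex. Nup54 was called, with 12.5, 13.3, 11.6 and 10.6 CPM in uninduced and 14.6, 15.7, 14.7 and 13.2 CPM in induced heads. The groups touched, since induced replicate 4 lay just under uninduced replicate 2. This gave a log2 fold change of 0.27 (SE 0.09, edgeR adjusted p = 0.0237, 2R 12428449 to 12431099), and the exact two-sided permutation test gave p = 0.0571, where 4 against 4 libraries cannot go below 0.0286. The call was lost without uninduced replicate 4 (adjusted p = 0.052), induced replicate 2 (0.0724) or induced replicate 3 (0.0524), and with DESeq2 (0.0558). Nup58 was not called (log2 fold change 0.16, adjusted p = 0.127), although its induced libraries (11.6 to 13.1 CPM) all lay above the uninduced ones (10.2 to 11.5 CPM). Nup62 measured 17.6 to 21.1 CPM in uninduced and 18.8 to 20.8 CPM in induced heads, with an estimate of 0.02 (95% interval -0.13 to 0.18).

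On the cytoplasmic face, Nup358 (RanBP2), the large filament protein that binds Ran and RanGAP in animal cells, had 102, 102, 97.0 and 93.6 CPM in uninduced and 132, 129, 124 and 125 CPM in induced heads. The groups were well separated. The log2 fold change was 0.37 (SE 0.05, 95% interval 0.27 to 0.46, edgeR adjusted p = 2.15e-05, 3R 25249348 to 25258672) at 1204 to 1960 counts per library. The outer ring gene Nup37 ends 247 bases upstream on the same strand, and its estimate was -0.08 (adjusted p = 0.709). The within-library ratio of Nup358 to Nup37 counts, chosen after the values were seen, was 24.8 ± 3.94 in uninduced and 33.8 ± 5.29 in induced heads at only 44 to 63 Nup37 counts per library. Uninduced replicate 2, at 30.4, came close to the lowest induced library, at 31.1.

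Nup214, a filament nucleoporin, measured 24.2, 22.2, 22.6 and 21.7 CPM in uninduced and 26.0, 24.0, 26.4 and 26.3 CPM in induced heads. Induced replicate 2 lay just under uninduced replicate 1, so the groups overlapped. This gave a log2 fold change of 0.18 (SE 0.06, edgeR adjusted p = 0.0367, 2R 22918937 to 22924742). This was the least stable of the called members, since the call was lost in 9 of 15 alternatives (adjusted p = 0.0522 to 0.106), among them leaving out uninduced replicate 2, 3 or 4 or induced replicate 1, 3 or 4, DESeq2 (0.106) and no filter on low counts (0.0522). Its partner mbo (the fly Nup88) and Rae1, an mRNA export factor that binds Nup98, were not called, at 12.6 to 20.1 CPM with estimates of 0.05 and -0.03 (adjusted p = 0.66 and 0.791).

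At the nuclear basket, 2 of 3 members were called. Nup153, which tethers the basket to the pore, had 71.6, 73.4, 73.7 and 68.3 CPM in uninduced and 96.1, 88.5, 93.9 and 88.8 CPM in induced heads. Every induced library was above every uninduced library by a margin wider than either group. The log2 fold change was 0.36 (SE 0.05, 95% interval 0.26 to 0.46, edgeR adjusted p = 3.47e-05, X 16599241 to 16610459). Nup50, a mobile basket protein that binds importin alpha in animal cells, measured 21.8, 22.7, 22.3 and 23.3 CPM in uninduced and 26.3, 25.4, 25.6 and 25.3 CPM in induced heads, without overlap. Its log2 fold change was 0.19 (SE 0.06, adjusted p = 0.0170, 2R 8123036 to 8125058), and DESeq2 did not call it (adjusted p = 0.0705). Mtor (the fly Tpr), which forms the basket filaments, was not called, at 30.1 to 42.5 CPM in uninduced and 37.3 to 43.6 CPM in induced heads (0.08, 95% interval -0.11 to 0.27). The ratio of Nup153 to Mtor counts, chosen after the values were seen, was 1.95 ± 0.225 in uninduced and 2.34 ± 0.0977 in induced heads, with overlap.

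The membrane ring proteins Ndc1 and Gp210, which span the nuclear envelope, were not called. Their levels were 8.95 to 39.9 CPM, with estimates of 0.10 and 0.02 and adjusted p of 0.4 and 0.828.

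**Figure D2:**
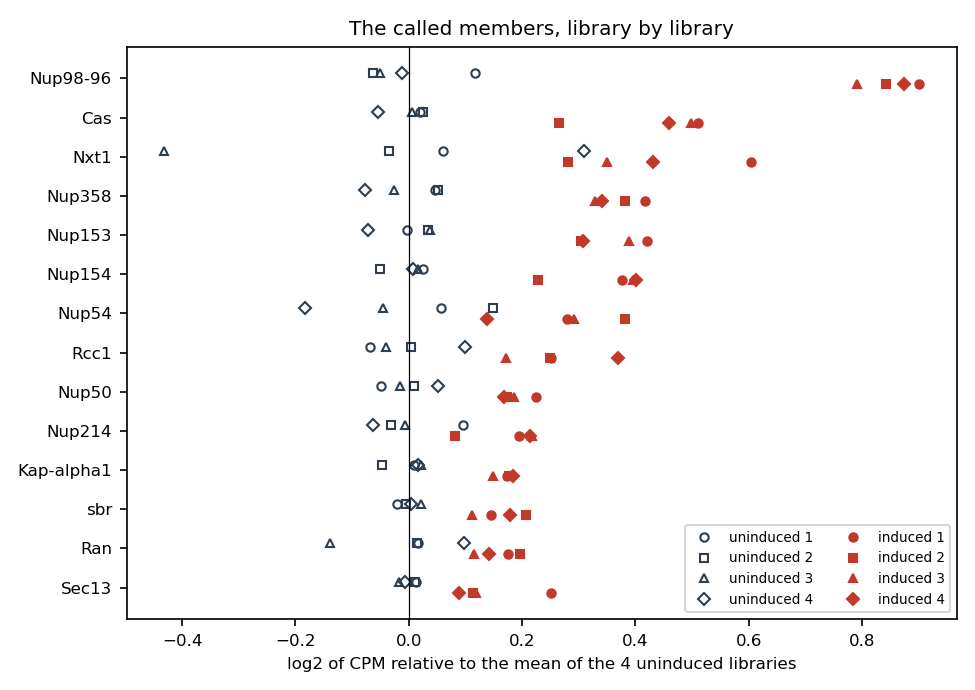
Log2 of CPM of the 14 called members in each of the 8 libraries, relative to the mean of the 4 uninduced libraries (open symbols uninduced, filled symbols induced, 1 symbol shape per replicate number). The groups overlap only for Nxt1, Nup54 and Nup214, and the 4 induced values of Nup98-96 lie beyond those of any other member.

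In the Ran cycle, Ran itself and the exchange factor Rcc1 were called. Rcc1 measured 24.2, 25.5, 24.7 and 27.2 CPM in uninduced and 30.2, 30.2, 28.6 and 32.8 CPM in induced heads, without overlap. This gave a log2 fold change of 0.26 (SE 0.06, 95% interval 0.13 to 0.40, edgeR adjusted p = 0.00452, 3L 5930262 to 5932773). Ran had 194, 194, 174 and 205 CPM in uninduced and 217, 220, 208 and 212 CPM in induced heads, with uninduced replicate 3 lowest. Its log2 fold change of 0.16 (SE 0.05, adjusted p = 0.0267, X 11144852 to 11148716) was no longer called without uninduced replicate 3 (adjusted p = 0.0638) or without induced replicate 1 (0.0591), 2 (0.072) or 4 (0.0502).

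RanGAP, which acts against Rcc1 from the cytoplasmic side, had a log2 fold change of -0.07 (95% interval -0.22 to 0.09, adjusted p = 0.501) at 12.9 to 14.7 CPM. RanBP3, a cofactor of nuclear export in vertebrates, was at 19.1 to 24.5 CPM with an estimate of 0.09 (adjusted p = 0.332). The ratio of Rcc1 to RanGAP counts within a library was 1.79 ± 0.157 in uninduced and 2.25 ± 0.229 in induced heads, a description of a pair chosen after the values were seen.

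Importin alpha adaptors bind the classical nuclear localisation signal and join importin beta. Of the paralogs, only Kap-alpha1 was called. It had 103, 99.1, 104 and 104 CPM in uninduced and 116, 116, 114 and 116 CPM in induced heads, with a log2 fold change of 0.17 (SE 0.04, edgeR adjusted p = 0.00372, 3L 19807232 to 19810398) with no overlap. Kap-alpha3 was more abundant, at 333, 319, 338 and 343 CPM in uninduced and 313, 321, 309 and 314 CPM in induced heads, and was not called (-0.08, 95% interval -0.18 to 0.01, adjusted p = 0.135). Their within-library ratio, Kap-alpha1 over Kap-alpha3, was 0.309, 0.310, 0.308 and 0.302 in uninduced and 0.369, 0.361, 0.368 and 0.371 in induced heads. This ratio, chosen after the values were seen, varied little between replicates, and its mean was 1.19-fold higher in induced heads. The third paralog, Pen, had 2 to 7 counts per library, 0.150 to 0.555 CPM in both groups together, and was not tested because of its low level in either group.

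None of the 4 importin beta family members passed the test. Fs(2)Ket (importin beta itself), Trn (transportin), msk (importin 7) and Karybeta3 (the importin 5 type) measured 48.6 to 593 CPM, with log2 fold changes of -0.07 to 0.11 and adjusted p of 0.148 to 0.524. Their high counts gave narrow intervals. For Fs(2)Ket, at 98.3 ± 4.18 CPM in uninduced and 101 ± 3.14 CPM in induced heads, the 95% interval was -0.06 to 0.14. It was -0.02 to 0.23 for Trn, -0.01 to 0.21 for msk and -0.17 to 0.02 for Karybeta3. The Trn and msk intervals thus include rises of the size of some called members, such as Sec13 (0.14).

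Of the exportins, Cas was called and emb was not. Cas, which returns importin alpha to the cytoplasm after it has released its cargo, measured 27.8, 27.9, 27.5 and 26.4 CPM in uninduced and 39.0, 32.9, 38.6 and 37.6 CPM in induced heads. The induced libraries all lay above the uninduced ones, with induced replicate 2 lowest among them. The log2 fold change was 0.44 (SE 0.06, 95% interval 0.30 to 0.57, edgeR adjusted p = 9.31e-05, 2L 16821156 to 16825207). Cas lies on the opposite strand inside the span of mdy, a lipid storage gene that fell by 0.50 on the log2 scale (adjusted p = 5.22e-06). Cas shares 0 annotated exon bases with mdy, and the part of mdy reads in the Cas count was not tested. Emb, the exportin 1 (CRM1) that carries leucine-rich export signals, had 111, 112, 114.6 and 105 CPM in uninduced and 113, 112, 109 and 110 CPM in induced heads, an estimate of 0.00 (95% interval -0.09 to 0.10, adjusted p = 0.957). The within-library ratio of Cas to emb counts, chosen after the values were seen, was 0.247 ± 0.00528 in uninduced and 0.334 ± 0.0268 in induced heads.

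Both subunits of the mRNA export receptor were called. The large subunit sbr measured 151, 153, 155 and 153 CPM in uninduced and 169, 177, 165 and 173 CPM in induced heads, with a log2 fold change of 0.16 (SE 0.04, edgeR adjusted p = 0.00662, X 10832752 to 10847092) with no overlap. Its partner Nxt1 was at 10.5, 9.80, 7.45 and 12.4 CPM in uninduced and 15.3, 12.2, 12.8 and 13.5 CPM in induced heads. Uninduced replicate 4 reached into the induced range, so the groups overlapped (log2 fold change 0.42, SE 0.13, adjusted p = 0.0176, exact permutation p = 0.0571, 2R 23811321 to 23811974). Without induced replicate 1 the Nxt1 estimate was 0.35 and no longer called (adjusted p = 0.0561). Nxt1 counts, 94 to 224 per library, were also among the lowest of the called members.

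Of the 14 called members, 8 were called in all 15 alternatives, which were Nup98-96, Nup153, Nup154, Nup358, Rcc1, Cas, Kap-alpha1 and sbr. With scaling to library totals alone, without correction for composition, the median of all tested genes moved to 0.18 and that of the members to 0.28. Under that scaling 45.3% of all tested genes and 30 of 39 members were called higher, no member was called lower, and all 8 members with a negative estimate had a positive one. The distance of the member median from the median of all genes was 0.10 with TMM and 0.11 with library totals. DESeq2 called 10 members higher, where 13.9% of all genes it tested were called higher.

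**Figure D3:**
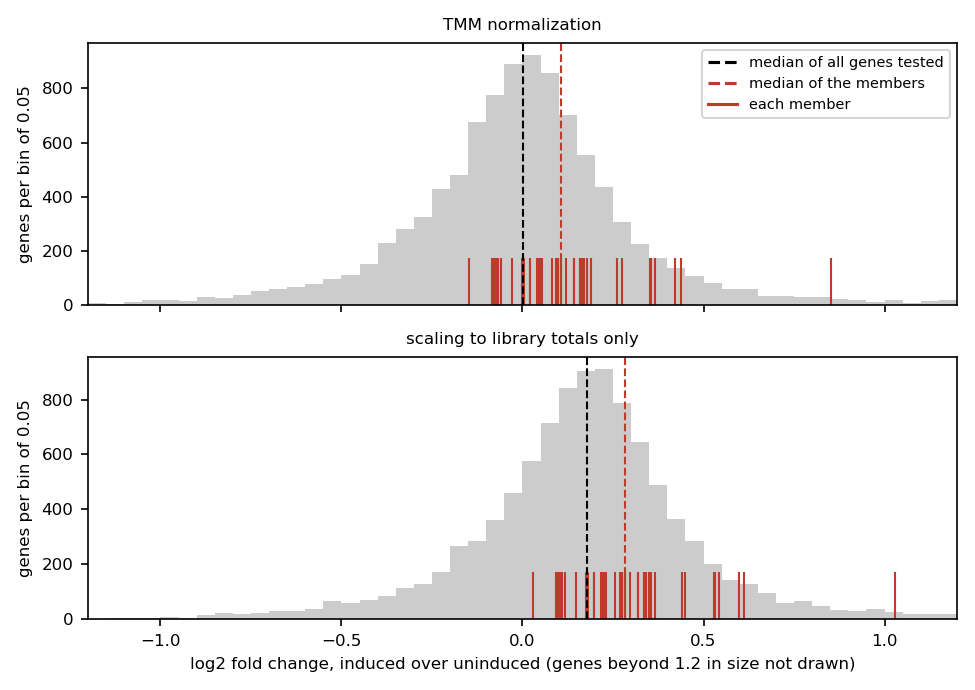
Histogram of log2 fold changes of all 9905 tested genes (grey), with each member as a red tick and the medians of all genes (black dashed line) and of the members (red dashed line), under TMM (upper panel) and library totals (lower panel). Both medians move together, from 0.00 to 0.18 for all genes and from 0.11 to 0.28 for the members. The member median lies to the right of that of all genes in both panels, although some members lie to its left.

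Levels between members can be compared only per length, in CPM per kb of exon. The length counts all annotated exons of a gene, and the gene models of the counting were not given, so the order is approximate. On this scale the members spanned from 1.73 (Nup205) to 131 (Karybeta3) in uninduced heads, with a median of 8.46. The most abundant were carriers and Ran, with Karybeta3 at 131 ± 4.13, Kap-alpha3 at 116 ± 3.53 and Ran at 101 ± 6.79, followed by Kap-alpha1 at 44.1, msk at 44.0 and sbr at 43.2, which did not differ beyond their spread. The first pore component in this order was Sec13 at 25.2, beside emb at 24.6. Scaffold nucleoporins filled the lower end, from Nup205 at 1.73 through Nup133 at 3.04, Nup37 at 3.30 and Nup160 at 3.52. Nup98-96 stood in the middle of the order in uninduced heads, at 7.75, and reached 14.0 CPM per kb in induced heads. The 2 most abundant members, Karybeta3 and Kap-alpha3, had negative estimates that did not pass the test, whereas the members with log2 fold changes above 0.25 all lay between 5.86 and 18.6 CPM per kb.

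**Figure D4:**
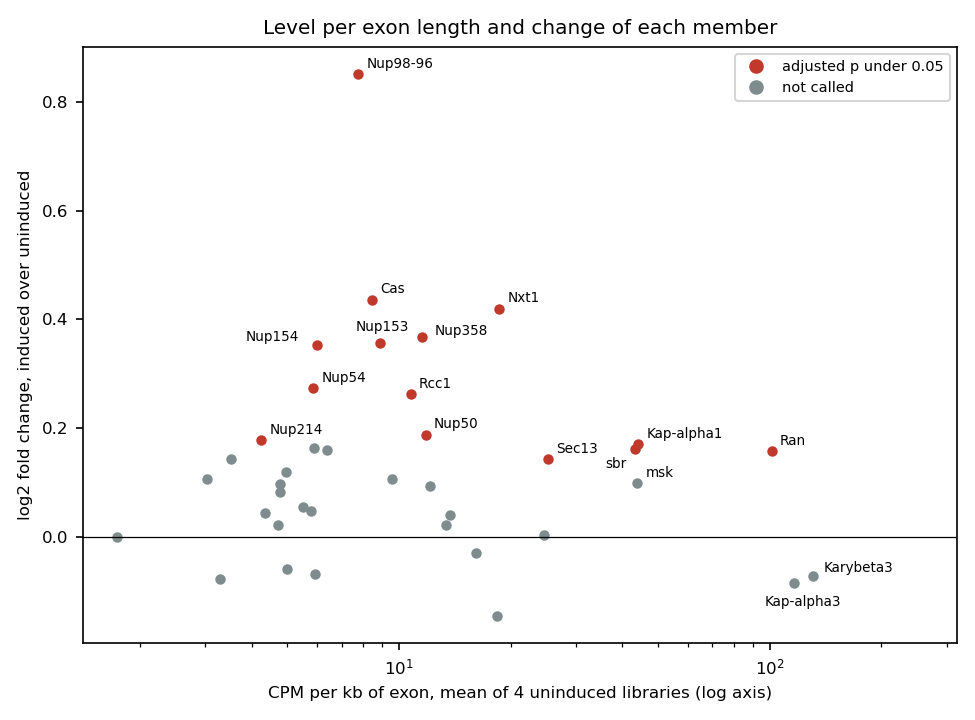
Level in uninduced heads (CPM per kb of exon, mean of 4 libraries, log axis) against log2 fold change, induced over uninduced, for the 39 tested members, with called members in red. Karybeta3 and Kap-alpha3, at 131 and 116 CPM per kb, lie below 0, and Nup98-96, at 7.75 CPM per kb, lies above all others.

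The 4 pore genes listed under older names did not enter the counts above. Elys (CG14215), which seeds pore assembly on chromatin after mitosis, had 28.2, 29.2, 26.5 and 21.7 CPM in uninduced and 35.8, 37.3, 34.3 and 35.0 CPM in induced heads, with a log2 fold change of 0.43 (SE 0.08, edgeR adjusted p = 0.000712) that was called in every alternative. The inner ring gene Nup188 (CG8771) rose from 12.5 ± 0.791 to 14.5 ± 0.489 CPM (0.22, adjusted p = 0.0340), a call lost in 7 of 15 alternatives (adjusted p up to 0.126), 5 of which left out a single library (uninduced replicate 3 or 4, or induced replicate 1, 2 or 3). The inner ring gene Nup35 (CG6540, 0.10, adjusted p = 0.61) and Aladin (CG16892, -0.05, adjusted p = 0.734) were not called.

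Further genes of the pathway were taken from 3 lists written by hand. Of 12 tested genes among other transport receptors and Ran cofactors, 4 were higher and 0 lower, and the largest rises were in Trn-SR, the importer of SR splicing factors (20.7 ± 1.4 to 25.1 ± 0.976 CPM, log2 fold change 0.28, edgeR adjusted p = 0.00409), tamo (0.21, adjusted p = 0.0211) and RanBPM (0.16, adjusted p = 0.0254). The tamo call was lost without induced replicate 4 (adjusted p = 0.0791), and the RanBPM call without induced replicate 3 (0.0682) or 4 (0.0708). Of 15 tested genes for mRNA export, 4 were higher and 0 lower. Ref1, the Aly adaptor that hands mRNA to sbr, rose from 63.6 ± 1.86 to 85.0 ± 5.12 CPM (0.42, adjusted p = 1.99e-05). Gle1 (CG14749), which acts with an RNA helicase at the cytoplasmic face (0.35, adjusted p = 0.000765), and Hpr1 of the THO complex (0.27, adjusted p = 0.00215) also rose. In these lists the shares called higher were 4 of 12 and 4 of 15, beside 17.7% of all tested genes. DESeq2 called 3 higher and 0 lower in each, where 13.9% of all genes it tested were higher. With library totals only, 9 of 12 and 7 of 15 were higher, where 45.3% of all tested genes were. The remaining calls, cdm and tho2, named after their values were seen, were lost in 9 and 11 of 15 alternatives.

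Of 11 tested genes of the nuclear envelope and lamina, 4 were higher and 2 lower, where 17.7% of all tested genes were higher and 18.8% lower. DESeq2 called 3 higher and 2 lower, where 13.9% of all genes it tested were higher. Library totals gave 7 higher and 1 lower, where 45.3% of all tested genes were higher. The nesprin Msp300, which links the nucleus to the cytoskeleton, rose from 580 ± 13.4 to 710 ± 15.7 CPM (log2 fold change 0.29, edgeR adjusted p = 0.000131), the inner membrane protein gene MAN1 rose by 0.27 (adjusted p = 0.00124) and the B-type lamin gene Lam rose from 36.0 ± 1.52 to 42.7 ± 2.23 CPM (0.24, adjusted p = 0.00344). Torsin, an ATPase of the endoplasmic reticulum and nuclear envelope lumen, fell from 42.5 ± 3.96 to 31.3 ± 2.66 CPM (-0.44, adjusted p = 0.000416). The envelope gene kuk fell as well (-0.21, adjusted p = 0.00868), but not under scaling to library totals (-0.03, adjusted p = 0.719). The remaining call, koi, which encodes a SUN domain protein and was named after its values were seen, was lost in 10 of 15 alternatives.

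Markers of several cell types moved between the same groups. All 8 fat body markers fell, with a summed level of 109977 to 118500 CPM in uninduced and 72376 to 91110 CPM in induced heads, and all 3 tested hemocyte markers fell (summed level 111 to 132 against 69.4 to 114 CPM over the 4 that were listed). Of the 8 neuronal markers 3 were higher and 1 lower, of the 6 glial markers 3 higher and 1 lower, of the 9 photoreceptor markers 1 higher and 1 lower, and of the 6 muscle markers 1 higher. Markers of dividing or germline cells were low, at 4.49 to 12.0 CPM in sum in uninduced and 5.70 to 7.49 CPM in induced heads, with 1 of 5 tested higher. Median log2 fold changes of the tested markers were 0.11 for neurons, 0.14 for glia, 0.01 for photoreceptors and 0.00 for muscle. They were -0.73 for fat body, -0.65 for hemocytes and 0.25 for dividing or germline cells, where the members had 0.11. No marker of these lists was at 0 in all libraries. In bulk heads, fewer cells of a type and less RNA per cell cannot be told apart, and the part of these shifts in the changes of the pore and transport genes was not tested.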

How the data were processed

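RNA-seq was performed by the authors on 15 heads per library, and reads were aligned to the Dm6 genome. The authors deposited a raw count of reads for each gene and library, without normalization, and these counts were used for every result. Which aligner, counter, gene models and strand mode were used was not given in the sources used here. Another 8 columns of normalized values and the authors' DESeq2 fold change and p-value columns were not used. The submitters' processing notes name DESeq2.

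The main test was edgeR 4.0.16, run in R 4.3.3 (TMM, filterByExpr, quasi-likelihood test, Benjamini-Hochberg adjustment over 9905 genes). A call is an adjusted p under 0.05. The SE was calculated back from the F statistic. CPM is TMM-normalized, ± is the SD over 4 libraries, and single members were also compared by exact permutation, two-sided, of log2 CPM with a pseudocount of 0.1. Library totals of 13247282 to 14962813 counts set the precision, lowest for genes with few counts. DESeq2 1.42.0 was an alternative, with RLE and upper quartile normalization, library totals only, a minimum of 10 counts per library, no filter on low counts, a replicate block and leaving out each library. The fit was tested on simulated counts drawn from uninduced levels. Few genes changed in them and composition did not shift as it did here, so the fit was not tested under such a shift.

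Coordinates and exon lengths are from the Ensembl BDGP6 annotation. All members were reported, called members in every library, with up to 3 called genes per direction of each further list. The members and lists were chosen with earlier results of these data known. The labels call the replicates biological, and p-values weigh the difference between the groups against the spread between these libraries. Protein and promoter sequences were not analysed here.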

Additional observations from a re-analysis of the deposited data

Results flagged for a closer look

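In 86 groups of 4 libraries, counting each tested pore or transport gene in each condition, 6 had a highest or lowest library that stood far from the other 3 by Dixon's criterion, where chance gives about 4.3. Induced replicate 1 stood high for Nup58 (13.1 CPM against 11.6 to 11.7) and for Nup107 (18.2 CPM against 15.5 to 15.8). Induced replicate 2 stood low for Nup154 (38.1 CPM against 42.2 to 42.9) and for Nup214 (24.0 CPM against 26.0 to 26.4). For CG6540 (Nup35), uninduced replicate 1 stood high (6.36 CPM against 4.82 to 4.98) and induced replicate 3 stood low (4.56 CPM against 5.86 to 6.07). Nup154 was called without induced replicate 2 as well as with it, and Nup58, Nup107 and Nup35 were not called in the main comparison.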

How the results depend on the processing

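Of 39 members, 14 were called higher by edgeR with TMM, where 17.7% of all tested genes were. With library totals only, 30 were called, all 30 higher, and the member median log2 fold change was 0.28 in place of 0.11. Under that scaling 45.3% of all tested genes were called higher, and their median moved from 0.00 to 0.18. With at least 10 counts in every library the member median was 0.11 (0.115), over fewer genes tested. DESeq2 called 10 members and 3179 genes in all, RLE and upper quartile normalization each called 14 members, and no filter called 13. When each library was left out in turn, 10 to 14 members were called, 10 to 13 higher and 0 to 1 lower (Nup44A, without uninduced replicate 2), with a median of 0.10 to 0.14 and 3176 to 3527 genes called in all, against 3616. No direction reversed among calls. The replicate numbers did not pair the libraries, since same-numbered deviations correlated at -0.088 to 0.022 and 0 induced libraries correlated best with their own number, and with the replicate block 12 members and 3459 genes were called, Sec13 (adjusted p = 0.0549) and Nup214 (0.0547) being lost. Pairs of replicates differed by more than sampling noise (chi-square per gene 2.74 to 12.4). The SE of the log2 fold change was largest for Nup37 (0.14, at 44 to 63 counts per library) and Nxt1 (0.13, at 94 to 224).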
